A study of Mus musculus with 13 samples.

Results

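Hippocampi of 7 wild-type mice, each on an array of its own, were compared: 3 mice that had been given saline injections and 4 that had not. They are the wild-type arrays among the 13 arrays of the series, chosen by genotype and experiment in the labels, and the 6 arrays of heterozygous mice serve here only to show which differences were seen again in other animals. All 7 mice were C57BL/6J and Kmt2d+/+, were 1 to 2 months old and ate standard chow without restriction. The 4 mice of experiment 1 received no injections, and their RNA was purified with the RNeasy kit. The 3 mice of experiment 2 received 3 injections of saline vehicle a day, as controls for another experiment, and their RNA was extracted with TRIzol and cleaned on a spin column. All are labelled female except uninjected replicate 3, whose sex is labelled unknown. The heterozygous mice, 3 without and 3 with injections, carry Kmt2d+/Bgeo, a gene trap in 1 copy of Kmt2d, which encodes a histone methyltransferase, and differ in the same way in injection and extraction. Injection, RNA extraction and experiment therefore changed together, and the part of each in any difference cannot be told apart. In the sources used here, neither the number of days of injection nor the time from the last injection to dissection was given.

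The hippocampus holds the granule cells of the dentate gyrus and the pyramidal cells of CA1, CA2 and CA3, with inhibitory neurons and glia among them, and is used in learning and memory. It carries dense receptors for glucocorticoids, the adrenal hormones released when an animal is handled or injected, and these receptors switch genes such as Fkbp5, Sgk1 and Klf9. Its neurons also switch on immediate early genes, such as Fos and Arc, within minutes of strong activity.

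Levels were log2 intensities, so that 1 unit is a doubling, of 19938 genes, each read by 1 chosen probe set. The array medians over these genes were 7.52 to 7.58 in the uninjected and 7.46 to 7.48 in the injected mice. The values of injected mice were spread less widely, with an SD over genes of 1.89 to 1.92 against 2.12 to 2.18. Rank correlations between arrays (Spearman, over genes, which are not independent replicates) were 0.991 to 0.998 among uninjected, 0.989 to 0.993 among injected and 0.935 to 0.950 between the groups. Of all genes, 11187 (56.1%) lay within 5 percentile points of the same place in both groups, while 186 stood more than 25 points higher and 331 more than 25 points lower in the injected mice. Tied values make some SDs too small, since 1697 genes held equal values on at least 2 of the 4 uninjected arrays and 218 on at least 2 of the injected arrays.

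Markers of the labelled tissue were measured in both groups. A gene's percentile is its place among all genes of 1 array and depends on its probes, so it is compared here only for the same genes across arrays. The median percentile of 20 dentate granule cell genes was 76.2 to 86.6 on the uninjected and 81.0 to 85.2 on the injected arrays. The 17 genes of CA1 pyramidal cells stood at 86.1 to 88.3 and 78.3 to 81.6, and the 19 genes of CA3 and CA2 at 82.8 to 86.6 and 77.9 to 83.1. Prox1, the transcription factor of granule cells, measured 9.86, 9.18, 10.11 and 10.09 in uninjected and 8.97, 8.30 and 8.77 in injected mice. Wfs1, an endoplasmic reticulum protein that marks CA1, measured 10.45, 10.61, 10.59 and 9.88 against 10.23, 10.88 and 10.71, and its groups overlapped. Astrocyte genes lay at 87.7 to 89.3 and 91.2 to 92.0, and microglial genes at 63.3 to 64.0 and 69.9 to 74.2. Genes of the cerebral cortex lay at 73.9 to 79.1 and 67.7 to 75.8, so these places do not tell hippocampus from cortex. In whole tissue, fewer cells of a type and less RNA per cell cannot be told apart.

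**Figure D1:**
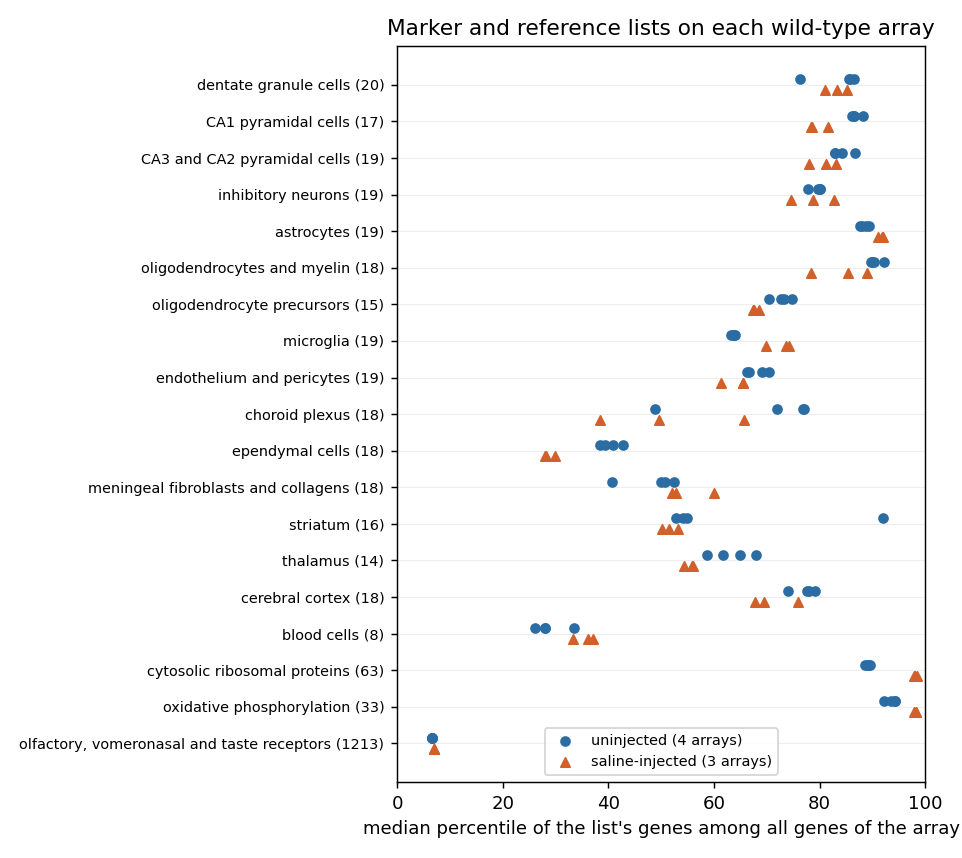
Median percentile of the genes of 19 lists (number of measured genes in brackets) on each of the 4 uninjected (circles) and 3 saline-injected arrays (triangles), with the percentile among all genes of the array on the horizontal axis. Hippocampal lists lie in the upper part on every array, the striatum list stands at 92.0 on 1 uninjected array alone, choroid plexus genes vary most among injected arrays, and ribosomal protein genes lie at 97.9 to 98.5 on all injected arrays.

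Some arrays also carried signal of neighbouring tissue or stood apart in other ways. The 16 measured striatal genes had a median percentile of 92.0 in uninjected replicate 2 and of 50.2 to 55.0 on the other 6 arrays. Drd2, the D2 dopamine receptor, measured 11.43 there against 8.10, 8.18 and 7.83 in the other uninjected mice, and Scn4b, a sodium channel subunit of striatal neurons, measured 11.38 against 7.79, 7.98 and 7.14. The choroid plexus, which makes cerebrospinal fluid, showed in 18 genes at percentiles of 48.8 to 77.1 in uninjected mice and at 49.6, 65.7 and 38.4 in injected replicates 1, 2 and 3. Ttr, the thyroid hormone carrier secreted by the choroid plexus, measured 13.35, 12.86, 13.36 and 13.43 in uninjected and 12.35, 13.33 and 9.63 in injected mice, so that 1 injected mouse was far below the rest. Prl, the pituitary hormone prolactin, varied from 4.66 to 6.74 in uninjected mice and reached 9.20 in injected replicate 2 against 6.35 and 6.76 in the other two. In uninjected replicate 3, Xist, the RNA that silences 1 X chromosome in females, measured 4.81 against 10.91 to 11.12 in the other three, and Uty, a Y-linked gene, measured 8.83 against 3.69 to 3.78. The part of these tissues and of this mouse in the differences between groups was measured only by leaving arrays out.

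Of the 10 genes of highest signal in each group, 5 were shared. Signals of different genes depend on their probes, so the order is that of these arrays only. In both, Rn7sk, the small nuclear RNA that restrains transcription elongation, was highest, at 13.78 ± 0.03 (SD, n = 4) in uninjected and 13.68 ± 0.10 (SD, n = 3) in injected mice. Actb, Baiap2l1, Rny3 and Eef1a1 were the others among the top 10 of both groups. Vsnl1, Hpca and Gnb1, a pair of neuronal calcium sensors and a G protein subunit, were among the top 10 of uninjected mice with Fth1 and Snap25. Tuba1a, an alpha tubulin, Rpph1, the RNA of RNase P, Camk2a, a synaptic kinase, Rtn3 and Cst3 took their place in injected mice. Of the 100 genes of highest mean in each group, 54 were shared. The genes that varied most within a group were those of the arrays just described: Xist, Uty, Eif2s3y, Scn4b, Serpina9 and Drd2 among uninjected mice, and Ttr, Kcnj13, Prl, Sostdc1, Timm21 and Slc2a12 among injected mice. Kcnj13, a potassium channel of choroid plexus, measured 8.75, 9.95 and 6.32 in injected mice.

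The difference between the groups was spread over most of the transcriptome. With limma and p-values adjusted by Benjamini-Hochberg over 19938 genes, 7406 genes were higher in injected mice (37.1%) and 6331 lower (31.8%). Of these, 560 (2.81%) were higher and 2029 (10.2%) lower by at least 1 log2 unit. The values of the groups did not overlap for 37.3% of genes on the higher and 31.3% on the lower side. After quantile normalization of the 7 arrays, which gives them the same distribution, 6146 genes (30.8%) were higher and 5315 (26.7%) lower, and the large differences numbered 894 and 1314, so that higher genes made up a larger share of them than the 560 of 2589 as deposited. Of the genes called as deposited, 4481 were higher and 4504 lower in both versions, and 11 were called in opposite directions. A count of called genes in a list is read against these shares.

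The direction depended on how bright a gene was. In the dimmest decile of genes the median difference was 0.20, with 44.0% higher and 1.05% lower, and in decile 3 it was 0.37. In the brightest decile it was -0.42, with 16.0% higher and 62.3% lower. After quantile normalization the medians of the 10 deciles lay between -0.07 and 0.13. The probe sets of 1213 olfactory, vomeronasal and taste receptors, which the hippocampus is not known for and which lay at a median percentile of 6.63 in uninjected and 6.99 in injected mice, show the dim end: 719 were higher and 1 was lower as deposited, with a median difference of 0.29, and after quantile normalization 227 were higher and 36 lower with a median of 0.06. Keratins and keratin-associated proteins, of hair and skin, had 68 higher and 3 lower of 96, with medians of 0.40 and 0.13. The shift with level applies to all the lists that follow, and counts after quantile normalization are given beside the lists in which it turned the balance of higher and lower genes. Over all genes the median difference was 0.08 as deposited, 0.03 after quantile normalization and 0.17 after centring each array on its median.

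**Figure D2:**
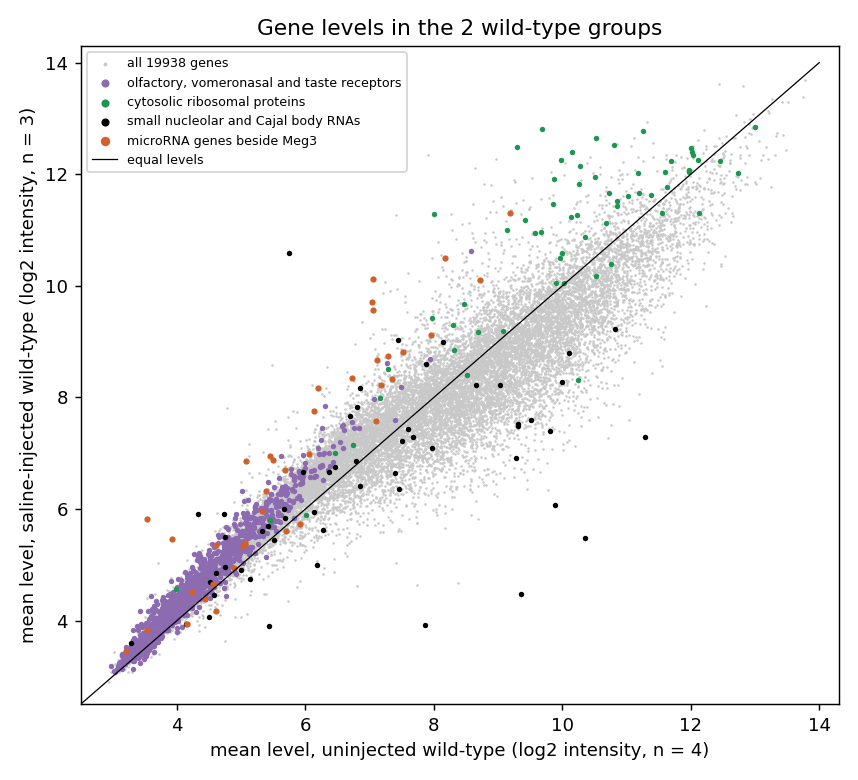
Mean log2 intensity of each of 19938 genes in uninjected (horizontal, n = 4) and saline-injected wild-type mice (vertical, n = 3), with 4 groups of genes coloured and a line of equal levels. Dim genes, including the olfactory receptors, lie slightly above the line and most bright genes below it, while ribosomal protein genes and microRNA genes beside Meg3 stand above it and small nucleolar RNAs stand far from it on both sides.

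Among the genes that rose most were short nuclear genes for mitochondrial proteins. Ndufa1, a small subunit of respiratory complex I, measured 8.07, 7.95, 8.01 and 7.58 in uninjected and 12.41, 12.33 and 12.28 in injected mice, a difference of 4.44 ± 0.12 (SE; 21.7-fold, adjusted p = 8.2e-09). Cox17, which carries copper to cytochrome c oxidase, measured 7.50, 7.62, 7.25 and 7.30 against 11.28, 11.29 and 11.24, a rise of 3.85 ± 0.10 (adjusted p = 8.2e-09). The groups were far apart for both. The 12 genes that rose most were chosen among genes without overlap between the groups, which held for 37.3% of all genes on the higher side. Tomm7, of the channel that imports proteins into mitochondria, rose by 3.30, Micos10, which shapes mitochondrial cristae, by 3.05, Ndufb10, another complex I subunit, by 3.03, Cox7a2l, a factor of respiratory supercomplexes, by 2.72 and Mrps12, of the mitochondrial ribosome, by 2.67. The other genes among the 12 that rose most were Rny1, a small RNA of the Ro particle (3.47), Rnf7, a ubiquitin ligase subunit (2.92), Tns1, which links integrins to actin (2.86), Polr1d, a subunit of RNA polymerases I and III (2.82), and Sec61b, of the channel into the endoplasmic reticulum (2.73). In heterozygous mice the same difference was 4.37 for Ndufa1, 3.92 for Cox17, 3.24 for Tomm7 and between 2.32 and 3.00 for the other 9.

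Of the 33 measured genes of oxidative phosphorylation, 17 were higher and 11 lower, against 37.1% and 31.8% of all genes and 16.0% and 62.3% in the brightest decile. The list's median difference was 0.28 as deposited, 0.67 after quantile normalization and 0.17 without uninjected replicate 2, and 7 rose by at least 1 unit. Ndufa2, another complex I subunit, measured 9.84, 9.94, 9.67 and 9.82 against 12.14, 12.01 and 11.97, a rise of 2.23. Ndufa4, of cytochrome c oxidase, rose by 1.96 and Cox4i1, of the same complex, by 1.54. The list did not move as one, since 11 of its genes fell. Glycolysis and the tricarboxylic acid cycle, which feed this pathway, had 3 higher and 16 lower of 26, and Pfkl, a phosphofructokinase, fell by 1.61, Ldha, lactate dehydrogenase, by 1.30 and Idh3b, of isocitrate dehydrogenase, by 1.22.

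Most ribosomal protein genes rose. Of 63 measured genes of cytosolic ribosomal proteins, 46 were higher (73.0%) and 7 lower, 23 rose by at least 1 unit, and the median difference was 0.55 as deposited, 0.89 after quantile normalization and 0.50 in heterozygous mice; 4 were lower with uninjected replicates 2 and 3 left out. Rps3a1 measured 8.03, 8.01, 8.01 and 7.97 in uninjected and 11.43, 11.30 and 11.14 in injected mice, a difference of 3.29 ± 0.08 (SE, adjusted p = 8.2e-09). Rps21 rose from 9.29 ± 0.11 (SD, n = 4) to 12.49 ± 0.04 (SD, n = 3), Rps12 from 9.68 ± 0.06 to 12.80 ± 0.10 and Rps29 from 9.97 ± 0.05 to 12.26 ± 0.01. Many ribosomal protein genes have near-identical processed copies in the genome, so the probe sets can share signal with them. Other short genes rose too, among them Gas5, a non-coding RNA that hosts small nucleolar RNAs and is named here after its values were seen, from 8.90, 8.93, 9.05 and 8.78 to 11.56, 11.46 and 11.52. Histone genes of the replication-dependent kind, whose RNAs lack a poly(A) tail, had 11 higher and 4 lower of 31, with a median of -0.03 that was 0.03 after quantile normalization and lay between -0.03 and 0.03 when 1 mouse was left out, above 0 without uninjected replicate 2 or 3 or injected replicate 1, and H4c14 rose by 1.88.

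The difference followed the length of the gene. Among the 9277 protein-coding genes in the brighter part of the table (mean level above 7.70), which were split into deciles by the span from start to end of the gene in the RefSeq annotation of GRCm38.p6, the shortest decile had a median span of 3158.5 bases and a median difference of 0.16. In this decile 45.5% of genes were higher and 28.4% lower, and 16.4% rose by at least 1 unit. Decile 7, with a median span of 45895 bases, had a median difference of -0.55, with 9.48% higher and 66.1% lower. The longest decile, with a median span of 276448 bases, had a median of -0.50. After quantile normalization the medians ran from 0.48 in the shortest decile to -0.24 in decile 8, and in heterozygous mice from 0.03 to -0.51. The rank correlation of span and difference across these genes was -0.30, -0.29 after quantile normalization and -0.26 in heterozygous mice, a description over genes of the same arrays. The 326 of these genes that rose by at least 1 unit had a median span of 5478 bases and the 1723 that fell by as much one of 38913 bases.

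**Figure D3:**
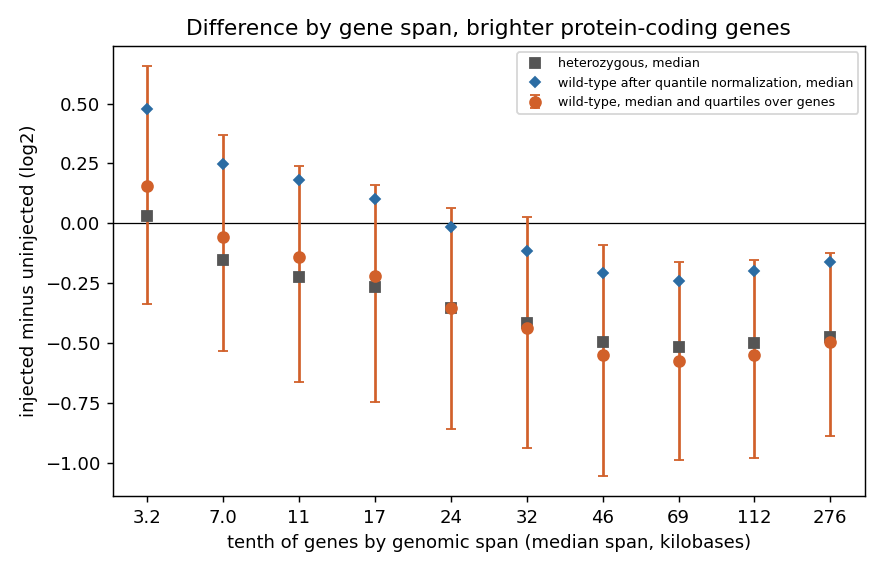
Median difference, injected minus uninjected (log2), of 9277 brighter protein-coding genes in deciles by genomic span, with each decile's median span in kilobases below. Circles and bars give the median and quartiles over genes in wild-type mice, squares the heterozygous mice and diamonds wild-type mice after quantile normalization. All 3 series fall from the shortest decile to decile 8, from 0.16 to -0.58 in wild-type mice.

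The genes that fell most were of many kinds. Zfp931, a zinc finger gene, measured 8.63, 8.24, 8.06 and 8.58 in uninjected and 4.83, 4.23 and 4.96 in injected mice and fell by 3.71 (SE 0.19, adjusted p = 1.6e-07). Fundc1, a receptor for the removal of mitochondria, fell by 3.45, from 11.03 ± 0.12 (SD, n = 4) to 7.59 ± 0.24 (SD, n = 3). Spred1, an inhibitor of Ras signalling, fell by 3.44, AI504432, a non-coding RNA, by 3.43 and Cops2, of the COP9 signalosome, by 3.25. Uhmk1, a kinase, fell by 3.13, Ly96, the partner of the endotoxin receptor, by 3.10, and Bhlhe41, a repressor of the circadian clock, by 3.09. Bmpr1a, a receptor for bone morphogenetic proteins, fell by 3.08, Tm9sf3 by 3.04 and Nampt, which makes a precursor of NAD, by 2.99. All 12 were chosen among genes whose groups did not overlap, so their separation is no result of its own. Of all genes, 31.3% did not overlap on the lower side. In heterozygous mice they differed in the same direction, by -3.48 for Fundc1, -3.29 for Zfp931, -2.28 for Cops2 and -2.72 for Bhlhe41.

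The last of the 12, Rmrp, the RNA of the mitochondrial RNA-processing ribonuclease, belongs to the small non-coding RNAs, which moved in both directions. Rmrp measured 11.58, 11.64, 11.53 and 11.47 in uninjected and 8.49, 8.60 and 8.59 in injected mice and fell by 2.99 (SE 0.08). Rny1 rose from 8.80, 8.13, 8.71 and 8.90 to 11.88, 12.24 and 12.20. Rny3, its relative, measured 13.56, 13.05, 13.50 and 13.57 against 13.10, 13.38 and 13.39, and Rn7sk 13.76, 13.82, 13.75 and 13.79 against 13.57, 13.76 and 13.72. Neither passed the test, and the groups overlapped for both. Rpph1 rose by 0.78. All 5 are transcribed by RNA polymerase III.

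Small nucleolar RNAs guide the chemical modification of ribosomal RNA and are mostly cut from introns. Of 54 measured small nucleolar and Cajal body RNAs, 18 were higher and 24 lower, with a median difference of -0.20, and 22 differed by at least 1 unit, 6 up and 16 down, against 2.81% and 10.2% of all genes. Snord82 measured 9.15, 9.66, 9.26 and 9.38 in uninjected and 4.28, 4.37 and 4.76 in injected mice, a fall of 4.89 (29.7-fold; SE 0.14, adjusted p = 1.3e-08). Snord42a went the other way, from 5.78, 5.96, 5.77 and 5.50 to 10.62, 10.63 and 10.50, a rise of 4.83 (28.5-fold; SE 0.11, adjusted p = 8.2e-09). Snora52 fell by 4.01, from a mean of 11.29 to one of 7.28, and Snord73b by 3.94, from 7.87 to 3.92. In heterozygous mice the difference was -4.32 for Snord82, 4.09 for Snord42a, -4.33 for Snora52 and -3.56 for Snord73b. The probe set of an intronic small RNA can also read its host transcript.

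MicroRNAs are short RNAs cut from hairpins in longer transcripts, and pair with messenger RNAs through a seed of bases 2 to 8. The array's probe sets are named for the hairpin gene, so a value is not a level of a mature arm. Of 296 measured microRNA genes 183 were higher (61.8%) and 12 lower (4.05%). Their median percentile was 16.8 in uninjected mice, in the dim part of the table. In deciles 2 and 3 by level, where their medians lie, 64.9% and 67.7% of all genes were higher and 1.71% and 5.67% lower. The median difference of the microRNA genes was 0.43 (0.22 after quantile normalization). Lower microRNA genes numbered 6 without injected replicate 2 and 5 without replicate 3. The 4 of lowest p were Mir483, which lies in an intron of Igf2 and rose from 7.31 ± 0.12 (SD, n = 4) to 9.90 ± 0.18 (SD, n = 3), Mir338, which rose by 2.06, Mir185, by 1.74, and Mirlet7a-1, by 1.29.

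A run of rising microRNA genes lay on chromosome 12 beside Meg3, in an imprinted region whose non-coding RNAs Meg3 and Rian and microRNAs are made from the maternal chromosome. It was picked after its values were seen, so it gets no test as a group. Of 39 microRNA genes measured from 109571990 to 109743496 of chromosome 12, a stretch of 172 kilobases, on the plus strand of GRCm38.p6 in RefSeq, 28 were higher and 1 lower and 20 rose by at least 1 unit (51.3%), while 44 of the 257 microRNA genes elsewhere did so (17.1%). The median difference was 1.01 as deposited, 1.17 after quantile normalization and 1.01 in heterozygous mice. The mature sequences of the 6 that rose by at least 2 units, and of 2 neighbours that did not rise, are shown with the seed in capitals, as RefSeq gives them with GRCm38.p6, since the cluster's transcripts yield arms of quite different seeds.
mmu-miR-665-5p: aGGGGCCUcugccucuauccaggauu
mmu-miR-665-3p: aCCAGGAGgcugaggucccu
mmu-miR-329-5p: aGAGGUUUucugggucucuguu
mmu-miR-329-3p: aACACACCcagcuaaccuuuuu
mmu-miR-485-3p: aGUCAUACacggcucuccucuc
mmu-miR-134-5p: uGUGACUGguugaccagagggg
mmu-miR-134-3p: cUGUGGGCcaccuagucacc
mmu-miR-495-5p: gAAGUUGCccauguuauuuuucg
mmu-miR-495-3p: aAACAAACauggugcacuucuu
mmu-miR-341-5p: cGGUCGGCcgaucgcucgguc
mmu-miR-341-3p: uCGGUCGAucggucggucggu
mmu-miR-136-5p: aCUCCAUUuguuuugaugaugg
mmu-miR-136-3p: aUCAUCGUcucaaaugagucuu
mmu-miR-434-5p: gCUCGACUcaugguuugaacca
mmu-miR-434-3p: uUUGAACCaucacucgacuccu
No seed is shared among these arms, and the 74 arms of the cluster with a sequence in the table hold 72 distinct seeds.

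Mir665 measured 6.95, 7.84, 6.76 and 6.66 in uninjected and 9.97, 10.28 and 10.13 in injected mice, a rise of 3.08 ± 0.24 (SE, adjusted p = 2.5e-06). Mir329 measured 6.71, 7.97, 6.70 and 6.74 against 9.88, 9.58 and 9.67, and Mir485 7.07, 7.47, 6.85 and 6.82 against 9.78, 9.49 and 9.43. Mir134, whose mature form acts on dendritic spines, rose by 2.33. For Mir665, Mir329 and Mir485, picked for their large rise, the injected mice were all above the uninjected ones, as held for 37.3% of all genes. Replicate 2 was the highest of the uninjected mice for each of them. Mir495 rose by 2.28 from a low level and varied among injected mice, at 5.79, 4.96 and 6.70, and Mir341 rose by 2.12. Mir434, by contrast, measured 4.45, 4.07, 4.10 and 4.01 against 3.88, 3.85 and 4.07 and was not called (adjusted p = 0.10), and Mir136 fell by 0.45, a call lost on leaving out any 1 injected mouse (adjusted p 0.064 to 0.093); without uninjected replicate 2 the fall was 0.28. The rise of Mir127 was lost without uninjected replicate 3 or 4 or injected replicate 3, that of Mir299a without uninjected replicate 4 or injected replicate 2, and that of Mir411 without injected replicate 1 or 3. Mir434 and Mir136 lie between Mir665 and Mir341.

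The long RNAs of the region rose as well. Meg3 measured 10.94, 11.79, 10.85 and 10.71 in uninjected and 12.52, 12.54 and 12.47 in injected mice, a rise of 1.44 ± 0.22 (SE, adjusted p = 0.00022). Rian, which hosts small nucleolar RNAs, measured 7.35, 8.39, 7.13 and 6.85 against 10.08, 9.88 and 9.87, a rise of 2.51 ± 0.29 (adjusted p = 3.6e-05). Dlk1, a protein-coding gene of the same region expressed from the paternal chromosome, fell by 0.71 and Rtl1, another, rose by 0.33. Uninjected replicate 2 was the highest uninjected mouse for 38 of the 39 microRNA genes, as it was for 27.5% of all genes; it is the array with striatal signal. Without it 32 were higher and 1 lower, with a median difference of 1.17. Neighbouring probe sets can read the same long transcript, so the 39 values are not independent.

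**Figure D4:**
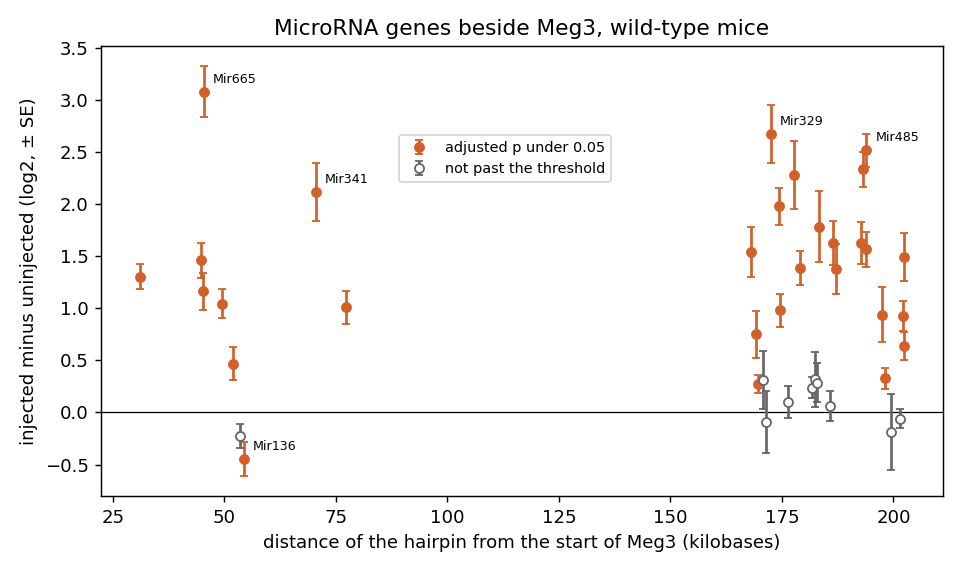
Difference, injected minus uninjected, with its SE for 39 microRNA genes of chromosome 12 against the distance of each hairpin from the start of Meg3 in kilobases; filled points have an adjusted p under 0.05 and open points do not. Rising genes occur both near Meg3 and in the run from 168 kilobases on, with members that did not rise between them, and Mir665 is the highest at 3.08.

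Genes that glucocorticoids switch on were more often lower than higher in injected mice, as were all genes of like level. Of 19 measured, 10 were lower (52.6%) and 1 higher (2 without uninjected replicate 3). The median difference was -0.47 as deposited and -0.22 after quantile normalization. Of all genes 31.8% were lower, and in decile 8 by level, where the list's median lies, 54.0% were lower and 19.0% higher. Klf9, a transcription factor induced by the hormone in neurons, measured 11.53, 11.49, 11.76 and 11.48 in uninjected and 8.80, 9.46 and 9.24 in injected mice and fell by 2.40 (SE 0.14, adjusted p = 4.4e-07). Pdk4, a kinase that restrains pyruvate dehydrogenase, measured 8.41, 8.48, 8.46 and 8.28 against 6.73, 6.65 and 6.55, and Mt2, a metallothionein, 12.03, 12.37, 12.35 and 12.03 against 10.75, 10.83 and 10.83. In each of these 3 genes every injected mouse lay below every uninjected one. They were named for a low p, which favours such separation, and 31.3% of all genes did not overlap on the lower side. Errfi1, an inhibitor of growth factor receptors, fell by 1.11. Of genes often used as readouts of the hormone, and named for that use and not by the rule, Fkbp5, a chaperone that damps the receptor, fell by 1.18, Tsc22d3 by 0.83 and Sgk1, a kinase, by 0.80, while Per1 differed by 0.01 (adjusted p = 0.93).

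Among stress hormone receptors and their regulators, the 4 genes of lowest p were all lower. Nr3c1, the glucocorticoid receptor, measured 9.49, 9.14, 9.25 and 9.39 in uninjected and 7.73, 8.05 and 7.77 in injected mice and fell by 1.47 (SE 0.11, adjusted p = 1.8e-06). Nr3c2, the mineralocorticoid receptor, measured 10.49, 10.32, 10.65 and 10.64 against 9.51, 9.24 and 9.60. Ptges3, a cochaperone of these receptors, fell by 2.86 and Mc4r, the melanocortin receptor, by 1.15. The groups did not overlap for any of the 4, but choice by lowest p favours this. Of all genes, 31.3% did not overlap on the lower side. In heterozygous mice the differences of the 4 were -1.54, -1.04, -2.68 and -1.18. In the list of 16 stress hormone receptors and regulators to which they belong, 8 were lower and 4 higher, with 2 higher when injected replicate 2 was left out. The list's medians lie in deciles 6 and 7 by level. Of all genes there, 41.0% and 50.03% were lower and 27.2% and 21.2% higher, so the list was near genes of like level.

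**Figure D5:**
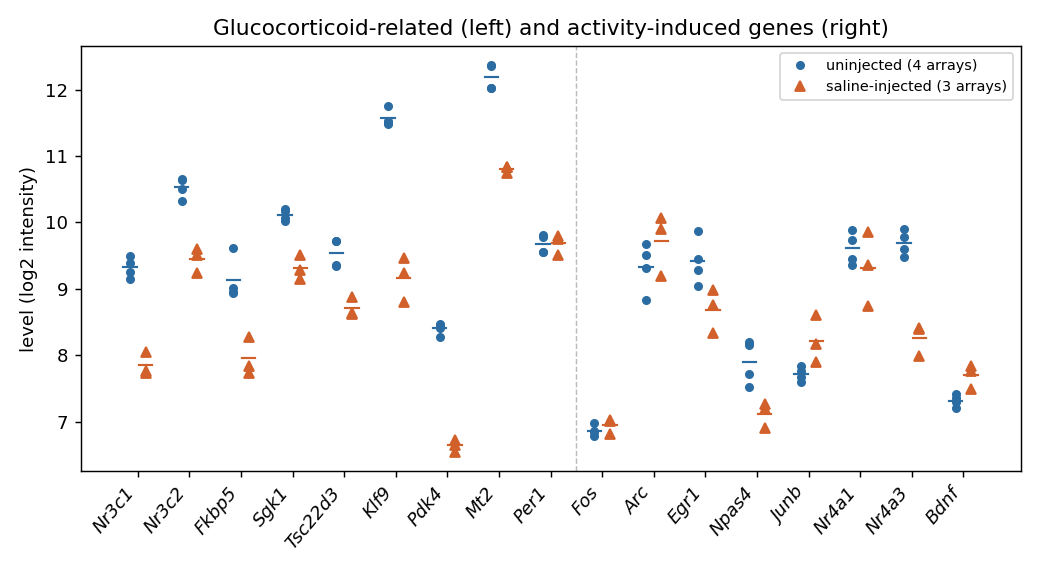
Log2 intensity of 9 glucocorticoid-related genes (left of the dashed line) and 8 activity-induced genes (right) on each uninjected (circles) and saline-injected array (triangles), with short bars at the group means. The groups are apart for Nr3c1, Nr3c2, Klf9, Pdk4 and Mt2, genes named for a low p, with injected mice lower. The groups overlap for Per1, Fos and Nr4a1.

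Immediate early genes did not move as a group. Of 25, 11 were lower (44%) and 3 higher (12%), with a median of -0.28 as deposited, -0.01 after quantile normalization and -0.05 without injected replicate 1. In decile 7 by level, near the list's medians, 50.03% of all genes were lower and 21.2% higher, with a median difference of -0.26. The list was thus near genes of like level. Fos measured 6.98, 6.84, 6.86 and 6.78 in uninjected and 6.81, 7.02 and 7.03 in injected mice, a difference of 0.09 ± 0.09 (SE, adjusted p = 0.38). Arc, which remodels synapses after activity, measured 9.51, 9.67, 8.84 and 9.31 against 9.19, 10.06 and 9.91 (adjusted p = 0.15), and its groups overlapped. Npas4 fell by 0.78 and Egr1 by 0.72, while Junb rose by 0.50 and Bdnf, a neurotrophin, by 0.38. By the rule for naming, Nr4a3, a nuclear receptor, fell by 1.43, Homer1 by 1.29, Nptx2 by 1.21, and Ier2 rose by 0.70. The probe set of Homer1 does not tell its short activity-induced form from the long one.

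Receptors for GABA, the main inhibitory transmitter, were lower almost throughout. Of 14 measured, 12 were lower (85.7%) and none higher. The groups did not overlap for 12, against 31.3% of all genes on the lower side. The list's median difference was -0.70 as deposited, -0.59 after quantile normalization with 8 lower, and -0.69 in heterozygous mice. Gabrg1, a subunit found in glia and some neurons, measured 9.32, 8.68, 9.09 and 9.04 in uninjected and 6.66, 6.64 and 6.63 in injected mice and fell by 2.39 (SE 0.13, adjusted p = 2.6e-07). Gabrb1 fell by 1.83, Gabra4, of receptors outside the synapse, by 1.69 and Gabra5, a subunit typical of hippocampal pyramidal cells, by 0.99. Gad2 and Gad1, the enzymes that make GABA, fell by 1.97 and 1.06. The spans of the named ones run from 40712 bases (Gad1) to 491652 bases (Gabrb1), and 62.3% of genes were lower in the brightest decile and 66.1% to 70.8% in deciles 7 to 10 by span.

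In the lists of glutamate receptors and the postsynaptic scaffold, 60% and 58.3% of genes were lower, against 61.1% and 62.3% of all genes in the brightest 2 deciles. Glutamate receptors had 12 lower and 2 higher of 20, with a median of -0.55, and 1 higher without uninjected replicate 4 or injected replicate 2 or 3, and Grm5, a metabotropic receptor, measured 12.13, 12.10, 12.16 and 12.11 against 10.78, 10.92 and 10.84. Synaptic vesicle genes had 22 lower and 3 higher of 29, among them Sv2a, a vesicle glycoprotein, which fell by 1.41, and Syt1, the calcium sensor of release, which fell by 0.94. In the postsynaptic scaffold 14 were lower and 3 higher of 24, with a median of -0.35 as deposited, and 8 lower and 8 higher with a median of -0.01 after quantile normalization, and Dlg3 fell by 1.55 and Nrgn, which binds calmodulin, by 1.32. Leaving out uninjected replicate 1, 2 or 4 or injected replicate 2 or 3 left 1 scaffold gene higher. Camk2a, a postsynaptic kinase, measured 13.17, 13.21, 13.21 and 13.24 against 13.09, 13.11 and 13.23 and was not called (adjusted p = 0.43).

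Markers of the principal neurons were lower in part. Lower genes made up 35% of the dentate, 64.7% of the CA1 and 68.4% of the CA3 and CA2 list, and 52.6% of inhibitory neuron genes. Of all genes, 54.0% and 61.1% were lower in deciles 8 and 9 by level, where the medians of these lists lie. Of dentate granule cell genes 7 were lower and none higher of 20, and 13 were lower without uninjected replicate 2; the median was -0.28 as deposited and 0.07 after quantile normalization, with 4 higher and 4 lower, a change of sign. Calb1, a calcium buffer of granule cells, fell by 1.53 and Prox1 by 1.13. Of CA1 genes 11 were lower and 1 higher of 17, and Man1a, a mannosidase, fell by 2.87, from 10.03, 10.08, 10.19 and 9.97 to 7.03, 7.29 and 7.28. Of CA3 and CA2 genes 13 were lower and none higher of 19, with 1 higher when uninjected replicate 2 or injected replicate 1 or 2 was left out, and Stxbp5l, a brake on vesicle release, fell by 1.03 and Grik4, a kainate receptor subunit, by 0.92. Among inhibitory neuron genes, 10 were lower and 1 higher of 19 (2 higher without injected replicate 1), while after quantile normalization 6 were lower and 8 higher, and Reln, secreted by Cajal-Retzius cells and interneurons, fell by 0.92.

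Glial and vascular markers divided within their own lists. The share of lower genes was 61.1% in the myelin and 57.9% in the astrocyte list. In deciles 9 and 10 by level, near the medians of these lists, 61.1% and 62.3% of all genes were lower. Both lists were thus near genes of like level. Microglial genes were 31.6% higher and 36.8% lower, and endothelial and pericyte genes 15.8% and 68.4%. In deciles 7 and 8, near their medians, 21.2% and 19.0% of all genes were higher and 50.03% and 54.0% lower. Myelin genes had 11 lower and 2 higher of 18, with none higher when injected replicate 2 or 3 was left out and 4 without replicate 1, and Cnp, a myelin enzyme, measured 11.87, 12.07, 11.98 and 11.90 in uninjected and 9.71, 10.66 and 10.52 in injected mice. Mbp, myelin basic protein, fell by 1.08 and Ermn by 1.40. Among astrocyte genes, 11 were lower and 2 higher of 19, and 7 and 6 after quantile normalization: Aqp4, the water channel of their endfeet, fell by 1.68 and Slc1a2, their glutamate transporter, by 1.02, while Gfap, their intermediate filament, differed by -0.24 (adjusted p = 0.10). Microglia had 6 higher and 7 lower of 19, with a median of -0.04 as deposited, and 9 higher and 4 lower with a median of 0.15 after quantile normalization. C1qa, of complement, measured 8.38, 8.36, 8.41 and 8.40 in uninjected and 10.17, 10.20 and 10.12 in injected mice, Tyrobp, an adaptor of their receptors, rose by 1.15 and Cx3cr1, the fractalkine receptor, by 0.73, whereas Csf1r, the receptor they need to survive, fell by 0.68. Endothelium and pericytes had 13 lower and 3 higher of 19, with Cldn5, of tight junctions, up by 1.11 and Slc2a1, the glucose transporter of the barrier, down by 1.24.

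For the striatal, choroid plexus and meningeal lists, the values depended on the arrays left out. Choroid plexus genes had 11 lower and none higher of 18, with a median of -1.12 that became -0.75 without injected replicate 3 and -1.51 without uninjected replicate 2. In heterozygous mice the median was 0.22, with 3 higher and 3 lower. Clic6, a chloride channel protein of the choroid plexus, measured 9.26, 7.89, 9.31 and 9.47 against 6.29, 6.72 and 5.69. Striatal genes had 4 lower of 16 and a median of -0.78, and without uninjected replicate 2 they had 7 lower, 3 higher and a median of -0.04. Ependymal genes, of ventricle linings, had 9 lower (50%) and 3 higher of 18, against 5.67% to 26.2% of all genes lower in deciles 3 to 5 by level. In heterozygous mice 4 of them were lower and 7 higher. Meig1 fell by 2.12, from 8.14, 8.15, 8.12 and 8.28 to 6.03, 6.12 and 5.99. Meningeal and collagen genes had 8 higher (44.4%) and 3 lower of 18, against 39.8% and 27.2% of all genes higher in deciles 5 and 6 by level. Their median was 0.28, and without uninjected replicate 2 it was 0.06 with 6 lower. Thalamic genes had 8 lower and 1 higher of 14, with 2 higher without uninjected replicate 2, 5 lower without injected replicate 2 and a median of -0.39 rather than -0.60 without injected replicate 1, and cortical genes had 7 lower and 1 higher of 18, or 2 higher without injected replicate 1. Blood cell genes had 5 higher (62.5%) and none lower of 8, against 67.7% and 55.7% of all genes higher in deciles 3 and 4 by level, where the list's medians lie. S100a9, a neutrophil protein and the one of lowest p, measured 5.74, 5.82, 5.62 and 5.92 against 7.16, 6.79 and 6.88.

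Genes of inflammation lay in the dim part of the table. Of 22 cytokine and acute phase genes, 11 were higher (50%) and 5 lower (22.7%), and after quantile normalization 4 and 5. In deciles 3 and 4 by level, near the list's medians, 67.7% and 55.7% of all genes were higher and 5.67% and 14.5% lower. Ccl2, which draws monocytes, rose by 0.75 and Ptgs2, the inducible cyclooxygenase, fell from a mean of 10.02 to one of 8.52, while leaving out uninjected replicate 3 left 3 lower and leaving out injected replicate 3 took the list's median from 0.25 to 0.16. Of 18 interferon-stimulated genes, 7 were higher (38.9%) and 1 lower, against 55.7% of all genes higher in decile 4 by level. Ifi27 measured 9.08, 8.73, 9.17 and 9.19 against 10.84, 10.91 and 10.42, while Ifitm3 rose by 1.22. In both, which were named for a low p, the injected mice were all higher, as held for 37.3% of all genes. The median of the interferon list was 0.15 as deposited, 0.02 after quantile normalization and 0.10 without injected replicate 2, and its single lower gene was lost on leaving out uninjected replicate 1 or injected replicate 1 or 3.

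In the lists of protein folding and of the clock, 55.0% to 59.1% of genes were lower. Heat shock genes (55.6% lower) had medians in deciles 9 and 10 by level, where 61.1% and 62.3% of all genes were lower. The stress response (59.1%) and clock lists (55.0%) had medians in deciles 8 and 9, where 54.0% and 61.1% were lower. After quantile normalization heat shock genes had 9 lower and 8 higher, the stress response list 8 and 7, and the clock list 8 and 5. Heat shock genes had 10 lower and 5 higher of 18, with 3 higher when any 1 of 5 mice was left out (uninjected replicates 1, 3 and 4 and injected replicates 1 and 2), and Chordc1 fell by 1.91, St13 by 1.75 and Dnaja1 by 1.72. In the unfolded protein and integrated stress response 13 were lower and 7 higher of 22, with 4 higher without uninjected replicate 3, and Calr, a chaperone of the endoplasmic reticulum, fell by 1.82. Clock genes had 11 lower and 1 higher of 20 (3 higher without injected replicate 1, none without injected replicate 2 or uninjected replicate 1, 2 or 4), and besides Bhlhe41, its relative Bhlhe40 fell by 1.33 and Rorb by 1.77. The hour of dissection was not given. Hypoxia genes had 11 lower and 4 higher of 20, with Higd1a, a small mitochondrial protein, up by 2.36 and Hif1a, the oxygen-sensing transcription factor, down by 1.40. Cholesterol synthesis had 11 lower (57.9%) and 5 higher of 19, against 54.0% and 61.1% of all genes lower in deciles 8 and 9 by level. The list's median was -0.36, or -0.22 without injected replicate 1. After quantile normalization the median was -0.04, with 7 lower and 9 higher. Idi1, an isomerase of the pathway, fell by 2.69.

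Genes of growth and new neurons moved both ways. Lower genes made up 52.9% of the growth factor, 52.4% of the progenitor and 60% of the oligodendrocyte precursor list. In deciles 6 to 8 by level, near the medians of these lists, 41.0% to 54.0% of all genes were lower and 19.0% to 27.2% higher. Among neurotrophins and growth factors 9 were lower and 5 higher of 17, with Fgf2 down by 1.64 and Sort1 by 1.21. Among genes of neural progenitors and immature neurons 11 were lower and 5 higher of 21, with Id4 down by 1.46 and Tubb3, a neuronal tubulin, up by 1.32. Oligodendrocyte precursors had 9 lower and 2 higher of 15, with Ptprz1, a phosphatase, down by 1.56 and Pdgfra, a growth factor receptor, down by 1.17. Genes of dividing cells had 5 higher (23.8%) and 2 lower of 21, at levels in the dim part of the table. In decile 4 by level, near the list's medians, 55.7% of all genes were higher and 14.5% lower. The list's median difference was 0.10 as deposited and, with 2 higher and 8 lower, -0.15 after quantile normalization. Without injected replicate 1 or 3, 3 genes of the list were higher.

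The same difference was fitted separately on the 6 arrays of heterozygous mice. There 5828 genes (29.2%) were higher and 6122 (30.7%) lower after injection. Of the wild-type calls, 5244 higher and 5606 lower genes were called in the same direction and 3 in the opposite one, and of the 2589 wild-type genes called with at least 1 unit, 2582 had the same sign. Across genes the 2 differences had a Pearson correlation of 0.958, a description over genes of separate mice. In the test of whether the difference itself differed between genotypes, limma called 0 of 19938 genes (0%), the smallest adjusted p was 0.554, and 1301 genes (6.53%) had an unadjusted p under 0.05. No gene named here was therefore shown to differ in wild-type mice alone, and a p that misses the threshold does not show that the genotypes responded alike.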

How the data were processed

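The authors deposited log2 intensities of Affymetrix Mouse Gene 1.0 ST arrays, 1 value per probe set and array, and the submitters' processing notes name oligo and RMA. A package version, a genome build and whether the arrays were normalized in 1 run: not given in the sources used here. Of 35556 probe sets, 21789 had 1 gene symbol in the platform annotation, 1621 had several and 12146 had none; 19938 genes were tested, each by its probe set of highest mean over the 13 arrays (a choice for 998 genes). The 4 against 3 arrays limit the precision; replicates are taken to be separate mice from their labels, so p-values measure the spread between these samples. Groups were compared with limma 3.58.1 (lmFit, eBayes, two-sided) in R 4.3.3 with statmod 1.5.0, adjusted by Benjamini-Hochberg over all genes at a threshold of 0.05, and the script was tested on simulated data. Heterozygous arrays were fitted separately, and the genotypes were compared in a model of 4 groups. RefSeq GRCm38.p6 tables, matched by gene ID for 19855 genes, gave spans and mature microRNA sequences; 258 of 296 microRNA genes had a hairpin there. The members and the 42 gene lists were chosen with earlier results of these data known. Named genes are the 12 of largest difference in each direction that were called as deposited and after quantile normalization without overlap (single genes of the prefix lists and predicted genes aside), up to 4 of lowest p per list, the 10 of highest mean and 6 of largest SD per group, and the sex-linked genes; any others are named for their role or after their values were seen. Alternatives were median centring, quantile normalization, the mean of all probe sets, every probe set, filters of the lowest 30% and 50%, array weights, a robust trended fit, the 4-group fit, a replicate block and leaving out mice.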

Additional observations from a re-analysis of the deposited data

Results flagged for a closer look

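Among 67 measures checked in the 4 uninjected mice (the median level of each of 42 lists, 24 named genes and the array median), 7 had 1 mouse far from the other three by Dixon's ratio of gap to range at the 95% critical value for 4 samples; chance flags about 1 in 20. In 6 of the 7 the mouse was uninjected replicate 2. The ratio was 0.948 for the striatum list, whose median was 10.51 there against 7.78 to 7.92, and 0.935 for dentate granule cells, at 9.18 against 9.96 to 10.01. It was 0.856 for inhibitory neurons, 0.846 for cholesterol synthesis, 0.835 for the hypoxia response and 0.869 for Bmpr1a. For oligodendrocyte precursors the ratio was 0.875 and the mouse was replicate 4, at 8.86 against 9.05 to 9.08.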

How the results depend on the processing

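The 4 wild-type counts of called genes (higher, lower, and each by at least 1 unit) stayed within 1.5 times its value as deposited under median centring, the mean of all probe sets, array weights, the robust trended fit and the 4-group fit. Genes higher in injected mice numbered 7406, and 3882 or 2000 with the lowest 30% or 50% left out, since dim genes are then not tested, and 13932 with every probe set. Large differences numbered 560 higher and 2029 lower as deposited, 894 and 1314 after quantile normalization and 2644 and 3097 with every probe set. Leaving out 1 mouse gave 6539 to 7341 higher and 5932 to 6484 lower genes, and 538 to 599 and 1963 to 2169 large ones. With a replicate block the counts were 6534 higher and 5986 lower. The shared numbers did not pair the mice, since the correlations of deviations of same-numbered mice were 0.11, -0.08 and -0.06, and the block is given only for that reason. Of 3210 values of 214 named genes under these alternatives, 3154 kept their side of the threshold, 33 lost the call and 20 gained one. Most of these genes were picked for a low p or for a call after quantile normalization, which favours a kept call. Among the 3154, 13 values that were called in neither version changed sign. The other 3 changed sign with a call in 1 of the versions: Serpina9 without uninjected replicate 2 (0.32; range on leaving out 1 mouse -0.94 to 0.32), and Uty without replicate 3 (0.34; range -1.37 to 0.34) and without replicates 2 and 3 (0.33). The call of Prl was lost without injected replicate 2 (1.02), uninjected replicate 2 (1.73) or 3 (1.61), and Kcnj13 went from -2.59 to -1.58 without injected replicate 3.
After quantile normalization 9 named genes lost their call (Actb, Birc5, Camp, Foxp1, Igfbp5, Prl, Serpina3n, Slc2a12 and Zfy2) and Cst3 and Eef1a1 gained one. Over all genes calls were lost more often: 4481 of 7406 higher and 4504 of 6331 lower genes kept theirs. The medians of the dentate, microglia, dividing cell, histone and sex-linked lists changed sign. Few arrays, the shared change of injection, extraction and experiment, and tied values limit all of these results, and dim probe sets have little signal over background.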
